A study of Mus musculus with 4 samples.

Results

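Cadherins and protocadherins are the calcium-dependent adhesion molecules by which cells of like kind recognise each other, and they were followed here in the embryonic cochleovestibular ganglion (CVG), the cluster of young sensory neurons that will serve hearing and balance. The genes were taken by name: every symbol that starts with Cdh and a number or with Pcdh, leaving out the epithelial genes Cdh1 and Cdh3 and the endothelial gene Cdh5. This gave 90 of the 25239 symbols in the tables, made up of 20 cadherins, 12 unclustered protocadherins and 58 clustered protocadherins (14 Pcdha, 22 Pcdhb and 22 Pcdhg). Of these, 80 reached 1 TPM (transcript abundance corrected for the length of the gene and the size of the library) in at least 1 library, among 15049 genes that did so.

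The samples were CVGs dissected from mouse embryos at embryonic day 11.5, with 1 library from each of 4 genotypes: Isl1CKO, Pou4f1KO, DKO and control. The names were taken to mean loss of the LIM-homeodomain factor gene Isl1 through a conditional allele, loss of the POU-homeodomain factor gene Pou4f1, and loss of both. The sources used here give neither the Cre driver of the conditional allele nor the alleles of the control embryos, nor how many embryos a library pooled. There were no replicates, so no difference below has a replicate check, no p-value was computed, and "higher" and "lower" describe single libraries. A gene counted as higher or lower when its log2 ratio of (TPM + 1) reached 1 or −1, a 2-fold difference. The 3 comparisons with control share that library and are not independent of each other.

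Aligned sequence amounted to 13.6 to 16.6 gigabases per library, so that 1 TPM stood for a mean depth of 4.95 to 5.93 reads per base. Pou4f1 stood at 188 TPM in the library labelled Isl1CKO, 16.6 TPM in Pou4f1KO and 14.6 TPM in the library labelled DKO, against 146 TPM in control, which goes with the labels. Isl1 went against its labels, at 854 TPM in the library labelled Isl1CKO, 340 TPM in Pou4f1KO and 579 TPM in the library labelled DKO, against 450 TPM in control. Gene-level TPM does not show whether the exons targeted by the conditional allele were lost, so every direction tied to the Isl1 label rests on the label alone. The samples are described as CVG neurons, and the pan-neuronal markers were high in each library (20 of 20 compared, summed TPM 15865 to 18449), while all 22 otic epithelium, all 12 endothelial and 16 of 17 mesenchyme markers also reached 1 TPM in some library. In such tissue samples, fewer cells of a type and less RNA per cell cannot be told apart.

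A classical cadherin joins neighbouring cells through its outermost domain and is tied to actin inside the cell by catenins. Type I and type II classical cadherins sort neurons into groups and help axons choose partners. The delta protocadherins adhere more weakly and pass signals to the actin cytoskeleton, and the clustered protocadherins, each made from its own promoter with a constant end shared by all isoforms of the Pcdha or of the Pcdhg cluster, give single neurons a surface identity by which they avoid their own branches. In the inner ear, CDH23 and PCDH15 are best known as the partners that form the hair cell tip link.

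The genes that differed most were few and unclustered. Cdh9, Cdh10 and Pcdh10 were higher in the library labelled DKO than in control, and Pcdh15 was lower. Their promoters are shown because these genes carry the results and because both mutated factors bind DNA through a homeodomain, whose usual core is TAAT. Each line holds the 250 bases upstream of the annotated start (RefSeq, build GRCm38.p6), 5′ to 3′, with every TAAT on either strand in capitals (ATTA on the strand shown).

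Cdh9, chr15:16728665-16728914, plus strand: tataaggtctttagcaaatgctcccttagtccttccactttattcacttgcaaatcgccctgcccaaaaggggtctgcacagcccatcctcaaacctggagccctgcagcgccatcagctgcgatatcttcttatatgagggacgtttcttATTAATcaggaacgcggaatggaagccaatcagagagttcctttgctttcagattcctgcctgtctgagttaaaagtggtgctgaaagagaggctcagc

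Cdh10, chr15:18820079-18820328, plus strand: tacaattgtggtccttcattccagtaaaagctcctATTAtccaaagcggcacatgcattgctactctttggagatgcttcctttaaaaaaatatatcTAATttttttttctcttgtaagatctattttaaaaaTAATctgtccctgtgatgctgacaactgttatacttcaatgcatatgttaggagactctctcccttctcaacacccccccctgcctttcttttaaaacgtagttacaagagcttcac

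Pcdh10, chr3:45378148-45378397, plus strand: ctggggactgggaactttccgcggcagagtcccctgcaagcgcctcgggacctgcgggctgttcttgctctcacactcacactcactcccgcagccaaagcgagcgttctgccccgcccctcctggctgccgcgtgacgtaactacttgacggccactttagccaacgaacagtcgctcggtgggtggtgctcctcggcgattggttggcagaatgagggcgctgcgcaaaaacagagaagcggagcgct

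Pcdh15, chr10:73821617-73821866, plus strand: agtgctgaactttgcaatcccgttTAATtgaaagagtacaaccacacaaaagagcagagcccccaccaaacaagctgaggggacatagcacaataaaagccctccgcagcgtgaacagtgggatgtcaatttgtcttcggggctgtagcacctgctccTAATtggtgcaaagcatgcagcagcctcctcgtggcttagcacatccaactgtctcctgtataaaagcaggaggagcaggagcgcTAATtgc

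Cdh9 had 2 such cores, which overlap, Cdh10 and Pcdh15 had 3 each, and Pcdh10 had none. This is a description of letters and not of binding sites: 54.9% of the 32851 RefSeq windows of this length held TAAT on either strand, and so did 14 of the 25 windows of the 22 unclustered members matched (members on chromosome 18 were not used). The longer TAATTAAT, which contains the shorter core on both strands, stood in 0.788% of all windows and in 0 of the 25. CTAATG, which also contains TAAT, was in 6.36% of all windows and in 2 of the 25, and none of the 4 windows shown held either longer motif. The windows differed in base composition. That of Pcdh10 had 63.2% G and C with 22 CG pairs, and that of Cdh10 had 36.8% with 2, against medians of 52.4% and 6 over all windows. The start used for Cdh10 lies 1382 bases inside the row of the deposited tables, which begins at an earlier start, whereas the other 3 coincide with the start of their row.

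The levels of the family were led by a few genes that every library shared. Cdh2, which encodes N-cadherin, the main adhesion molecule of neural tissue, stood at 250 TPM in the library labelled Isl1CKO, 314 TPM in Pou4f1KO and 284 TPM in the library labelled DKO, against 257 TPM in control. It was the highest member in all 4 libraries and made up most of the type I sum. Cdh4 (R-cadherin) lay between 21.6 and 27.0 TPM, and Cdh15 (M-cadherin, of muscle precursors) between 1.33 and 1.66 TPM. The 3 type I genes differed little, with log2 ratios of (TPM + 1) between −0.31 and 0.29 over the 3 comparisons with control.

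The next levels belonged to a delta-2 protocadherin, a type II cadherin and a clustered isoform. Pcdh17, a delta-2 protocadherin that acts on axon growth, stood at 87.6 TPM in the library labelled Isl1CKO, 95.3 TPM in Pou4f1KO and 94.6 TPM in the library labelled DKO, against 68.6 TPM in control. Cdh6 (K-cadherin) stood at 47.4 TPM in the library labelled Isl1CKO, 134 TPM in Pou4f1KO and 82.1 TPM in the library labelled DKO, against 82.4 TPM in control, so its highest and lowest values were those of the single mutants. By mean over the 4 libraries the order was Cdh2 (276 TPM), Pcdh17 (86.5), Cdh6 (86.4), Pcdhgc3 (81.6), Pcdh10 (52.3), Cdh11 (41.4), Pcdh18 (30.2) and Cdh24 (27.7). Pcdh18, another delta-2 gene, stood at 25.1 TPM in the library labelled Isl1CKO, 30.2 TPM in Pou4f1KO and 36.4 TPM in the library labelled DKO, against 29.0 TPM in control. Cdh24, a type II gene, stood at 30.7 TPM in the library labelled Isl1CKO, 23.6 TPM in Pou4f1KO and 27.4 TPM in the library labelled DKO, against 29.0 TPM in control. Beyond Cdh2, neighbours in this order overlapped across libraries. Together the 90 genes summed to 1022 TPM in the library labelled Isl1CKO, 1282 TPM in Pou4f1KO and 1222 TPM in the library labelled DKO, against 1017 TPM in control, and type I genes and the Pcdhg cluster made up 28.1% and 26.6% of the sum in control.

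**Figure D1:**
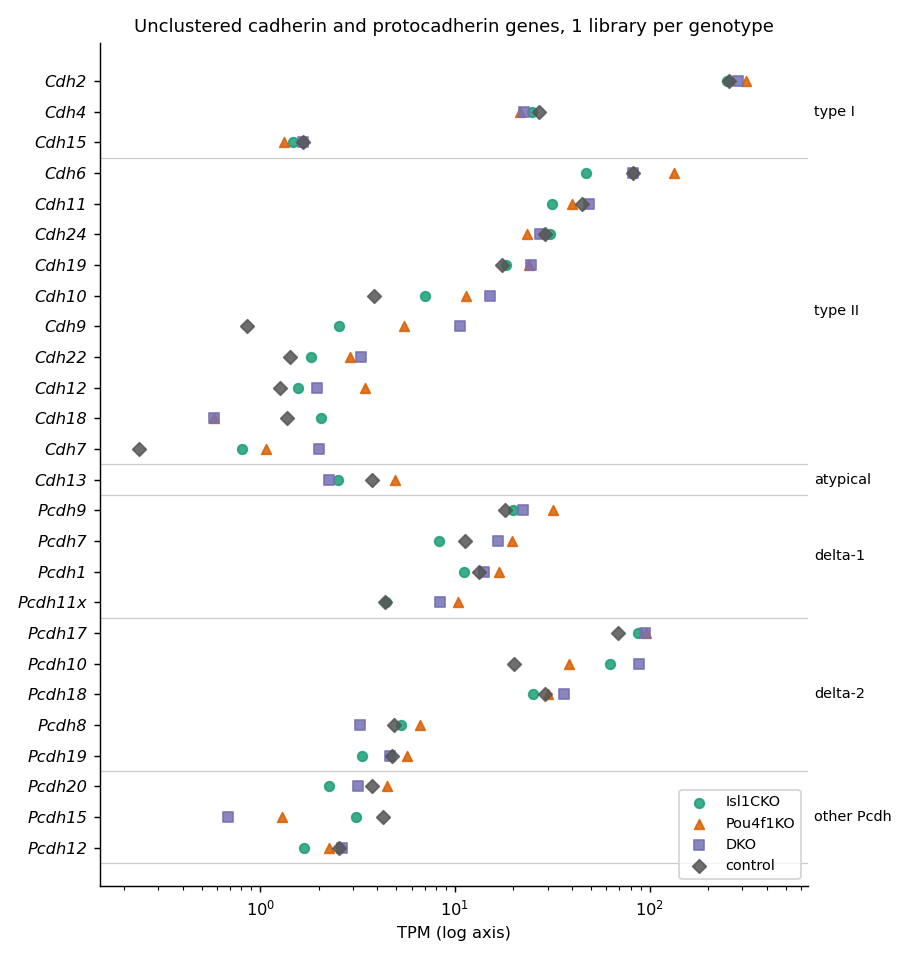
TPM (log axis) of the 26 unclustered genes that reached 1 TPM, by class, with 1 point per library. Cdh2 stands alone near 250 to 314 TPM, most genes keep their points close together, and Cdh9, Cdh10, Cdh7, Pcdh10 and Pcdh15 spread the most.

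The remaining members lay lower. There were 10 that did not reach 1 TPM in any library: Cdh8, Cdh16, Cdh17, Cdh20, Cdh23, Cdh26, Pcdha1, Pcdha8, Pcdhb1 and Pcdhb13. Cdh16 and Pcdhb1 were listed at 0 in all 4 libraries. Cdh23, whose protein pairs with PCDH15 in the tip link, stood at 0.06 TPM or less in each library. Among the unclustered genes that reached 1 TPM but stayed below 10 TPM in every library, Cdh13 (T-cadherin, held in the membrane by a lipid anchor) lay between 2.27 and 4.91 TPM.

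The first comparison asked which adhesion genes differ where Isl1 is marked as deleted. Pcdh10, a delta-2 protocadherin (OL-protocadherin) that recruits the actin-regulating WAVE complex to cell contacts, was the 1 member of 80 at least 2-fold higher than in control, and 0 were lower; over all genes compared, 0.585% were higher, 0.618% lower and 1.2% either. Pcdh10 lies at mm10 chr3:45378398-45434579 on the plus strand with up to 5 exons. It stood at 62.7 TPM in the library labelled Isl1CKO, 38.5 TPM in Pou4f1KO and 87.9 TPM in the library labelled DKO, against 20.1 TPM in control. All 3 mutant libraries were above control, and both libraries that carry the Isl1 label were above both that do not. Its log2 ratio of (TPM + 1) was 1.59 for Isl1CKO over control, which placed it 16th from the highest of 15049 genes. Its row was covered 162 times in the library labelled Isl1CKO, 119 times in Pou4f1KO and 250 times in the library labelled DKO, against 65.4 times in control, between 0.488 and 0.548 of what its TPM goes with in most genes.

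Other members differed less in the library labelled Isl1CKO. Cdh9 and Cdh10 had log2 ratios of 0.94 and 0.72, below 2-fold. Cdh6 had the lowest ratio of the 80, −0.79, and Pcdh20 followed among the unclustered genes with −0.54. Cdh11 (OB-cadherin, of mesenchyme) had a ratio of −0.51 and stood at 31.4 TPM, against 45.0 TPM in control. The summed mesenchyme markers stood at 291 TPM in this library, against 448 TPM in control, and their part in the Cdh11 value was not tested. The median over the 80 members was 0.01, against −0.02 over all genes compared.

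The second comparison asked the same of loss of Pou4f1. Of the 80 members, 3 were at least 2-fold higher (Cdh9, Cdh10 and Pcdh11x), against 0.977% of all genes, and 1 was lower (Pcdh15), against 1.73% of all genes (2.7% in either direction). Cdh9 and Cdh10 are type II cadherins of chromosome 15, and the lower one is known from hair cells. The median over the members was 0.25, against 0.02 over all genes, and 63 of the 80 had a ratio above 0, as had 8098 of the 15049 genes. Of the 80 members 54 are clustered rows, many of which share exons, and under pan-neuronal scaling the members' median was 0.02 with 44 above 0.

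Cdh9, a type II cadherin known from specific synapses of the retina and hippocampus, lies at mm10 chr15:16728915-16857138 on the plus strand with up to 12 exons. It stood at 2.55 TPM in the library labelled Isl1CKO, 5.49 TPM in Pou4f1KO and 10.7 TPM in the library labelled DKO, against 0.853 TPM in control. Every mutant library was above control, and the value in the library labelled DKO was above that of either single mutant. The log2 ratio was 1.81 for Pou4f1KO over control and 2.65 for DKO over control, and the second of these placed it 4th from the highest of all genes. Its row was covered 12.6, 31.7 and 62.1 times in the 3 mutant libraries in that order and 5.06 times in control, which is what its TPM corresponds to.

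Cdh10, its neighbour, a type II cadherin close to Cdh9 in sequence, lies at chr15:18818947-19014236 on the plus strand with up to 12 exons. It stood at 6.98 TPM in the library labelled Isl1CKO, 11.4 TPM in Pou4f1KO and 15.1 TPM in the library labelled DKO, against 3.85 TPM in control, the same order as Cdh9. Its log2 ratio was 1.35 for Pou4f1KO over control and 1.73 for DKO over control. The depth behind these values is small: the mean coverage of the row was 1.33, 2.53 and 3.40 times in the 3 mutant libraries in that order and 0.882 times in control. This was 0.0386 of the coverage that such a TPM goes with in most genes, the same share in all 4 libraries, so the level of Cdh10 is not set beside that of another gene here. On a coverage scale with the same pseudocount Cdh10 did not reach 2-fold, with ratios of 0.32 for Pou4f1KO over control and 0.46 for DKO over control. As the share is the same in all 4 libraries, the pseudocount weighs more on these smaller values and the ratios shrink.

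Cdh9 and Cdh10 belong to a group of 5 type II genes on chromosome 15 that span 10.4 megabases, with Cdh6 at one end, then Cdh9, Cdh10 and Cdh12, and Cdh18 at the other end. The 5 did not share an order across libraries. Cdh12 stood at 1.57 TPM in the library labelled Isl1CKO, 3.45 TPM in Pou4f1KO and 1.97 TPM in the library labelled DKO, against 1.27 TPM in control. Cdh18 stood at 2.05 TPM in the library labelled Isl1CKO, 0.581 TPM in Pou4f1KO and 0.576 TPM in the library labelled DKO, against 1.37 TPM in control, lower in both libraries that carry the Pou4f1 label. With Cdh6 as given above, the genes at either end of the group were not above control in the library labelled DKO, whereas Cdh9 and Cdh10 were. A second group on chromosome 1 holds Cdh7, Cdh19 and Cdh20. Cdh7 (chr1:109982900-110139903, plus strand) stood at 0.802 TPM in the library labelled Isl1CKO, 1.08 TPM in Pou4f1KO and 2.003 TPM in the library labelled DKO, against 0.239 TPM in control, the same order as Cdh9, at levels near the limit set for comparison. Cdh19, of glial precursors in nerves, lay between 17.5 and 24.5 TPM and had the order of Cdh9 too, without reaching 2-fold. So did Cdh22, a type II gene of chromosome 2. It stood at 1.82, 2.90 and 3.30 TPM in the libraries labelled Isl1CKO, Pou4f1KO and DKO, against 1.43 TPM in control. This order was therefore not particular to the genes past 2-fold.

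Pcdh11x, a delta-1 protocadherin of the X chromosome (chrX:120290327-120910618, plus strand), stood at 4.43 TPM in the library labelled Isl1CKO, 10.4 TPM in Pou4f1KO and 8.34 TPM in the library labelled DKO, against 4.39 TPM in control. Both libraries that carry the Pou4f1 label were above both that do not. Its log2 ratio was 1.07 for Pou4f1KO over control and 0.79 for DKO over control. The other delta-1 genes stood above control in Pou4f1KO without reaching 2-fold: Pcdh9 had a ratio of 0.79, Pcdh7 of 0.75 and Pcdh1 of 0.31. Scaled to equal pan-neuronal markers, Pcdh11x had a ratio of 0.84 and no longer reached 2-fold in Pou4f1KO.

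Pcdh15 (chr10:73821867-74649732, plus strand, up to 37 exons) was the lower gene. It stood at 3.11 TPM in the library labelled Isl1CKO, 1.30 TPM in Pou4f1KO and 0.686 TPM in the library labelled DKO, against 4.27 TPM in control, so all 3 mutant libraries were below control. Its log2 ratio was −1.20 for Pou4f1KO over control and −1.64 for DKO over control. On the FPKM and coverage scales it stayed past 2-fold in DKO over control but not in Pou4f1KO over control. The row was covered 3.87 times in Pou4f1KO and 2.14 times in the library labelled DKO, against 13.5 times in control, between 0.515 and 0.536 of what its TPM corresponds to. Markers of the otic epithelium, the tissue that gives rise to hair cells, were lower in 3 of 22 cases in the library labelled Isl1CKO, 13 of 22 in Pou4f1KO and 12 of 22 in the library labelled DKO. In each of the last 2 libraries 1 was higher, and 0 of the 22 were at 0 TPM in any library. Their summed level was 1088 TPM in the library labelled Isl1CKO, 1105 TPM in Pou4f1KO and 918 TPM in the library labelled DKO, against 1406 TPM in control, so the sums did not have the order of Pcdh15 in the single mutants, and their part in the Pcdh15 value was not tested.

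**Figure D2:**
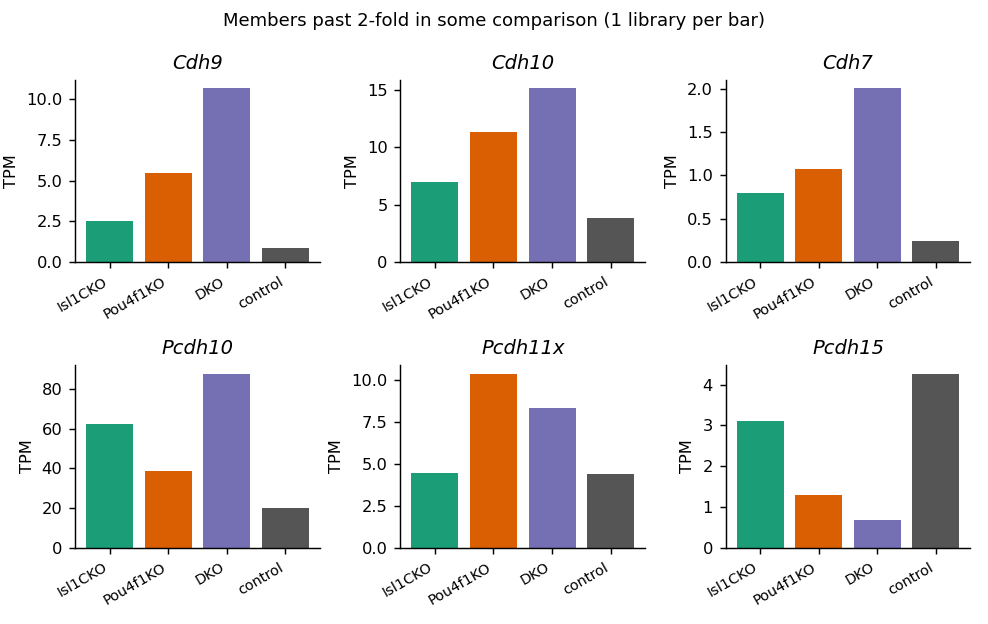
TPM in each of the 4 libraries for the 6 genes that passed 2-fold in some comparison, 1 bar per library, each axis from 0 with its own scale. Cdh9, Cdh10 and Cdh7 share the order DKO, Pou4f1KO, Isl1CKO, control from highest to lowest, Pcdh10 is highest with the Isl1 label and Pcdh15 is lowest with the Pou4f1 label.

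The third comparison set the library marked as lacking both factors against control. Of the 80 members, 4 were at least 2-fold higher than in control (Cdh7, Cdh9, Cdh10 and Pcdh10), against 1.01% of all genes, and 1 was lower (Pcdh15), against 2.34% of all genes (3.35% in either direction). Pcdh10 had its highest value here, with a log2 ratio of 2.07 that placed it 15th of 15049 genes, and Cdh10 stood 27th. Set against the sum of both single-mutant log2 ratios, the ratio in the library labelled DKO departed by −0.09 for Cdh9, −0.01 for Cdh7, −0.33 for Cdh10 and −0.42 for Pcdh10, and by −0.09 for Pcdh15. The largest departures among unclustered genes were −0.95 for Pcdh8 and 0.79 for Cdh11. Pcdh8, a delta-2 protocadherin whose rat form is induced by synaptic activity, stood at 5.29 TPM in the library labelled Isl1CKO, 6.61 TPM in Pou4f1KO and 3.25 TPM in the library labelled DKO, against 4.84 TPM in control. With 1 library each, a departure has no error.

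Each label can be read in 2 pairs of libraries that have none in common. For the Isl1 label these are Isl1CKO over control and DKO over Pou4f1KO. In the second pair 1 of the 80 members was higher, against 0.645% of all genes, and 0 were lower, against 1.12% (1.76% in either direction). That gene was again Pcdh10, with a log2 ratio of 1.17 beside 1.59 in the first pair. It was 100% of each list of higher members, but each list held 1 gene. Over all genes, 88 were higher in the first pair, 97 in the second and 27 in both. Those 27 were 0.179% of all genes compared, and 0.213% were lower in both, with 0 members among them. Cdh9 had ratios of 0.94 and 0.84 in the 2 pairs and Cdh10 of 0.72 and 0.38. Cdh6 had −0.79 and −0.70, the largest pair of lower values.

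For the Pou4f1 label the pairs are Pou4f1KO over control and DKO over Isl1CKO. In the second pair 2 members were higher (Cdh9 and Cdh10), against 0.87% of all genes, and 1 was lower (Pcdh15), against 1.23% (2.1% in either direction). Cdh9 had log2 ratios of 1.81 and 1.72, the second 8th from the highest of all genes, and Cdh10 had 1.35 and 1.01. These 2 genes were 66.7% of the 3 higher members of the first pair and 100% of the 2 of the second. Over all genes, 147 were higher in the first pair, 131 in the second and 30 in both, 0.199% of those compared. Pcdh15 had −1.20 and −1.29 and was 100% of both lists of lower members, each of 1 gene. Over all genes, 260 were lower in the first pair, 185 in the second and 107 in both, 0.711% of those compared. On the FPKM scale Cdh10 had 0.87 in the second pair and 0 members were lower in both, so on that scale neither Cdh10 nor Pcdh15 was past 2-fold in both pairs. Pcdh11x had 1.07 and 0.78, and Cdh18 had −0.58 and −0.95. Cdh9 was thus past 2-fold with the Pou4f1 label in both backgrounds and below it with the Isl1 label in both, although it passed there in Isl1CKO over control with a pseudocount of 0.1 TPM (1.47) and in DKO over Pou4f1KO under pan-neuronal scaling (1.04), and Pcdh10 stood the other way round, with Pou4f1-label ratios of 0.90 and 0.48. The difference between the labels was not tested.

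**Figure D3:**
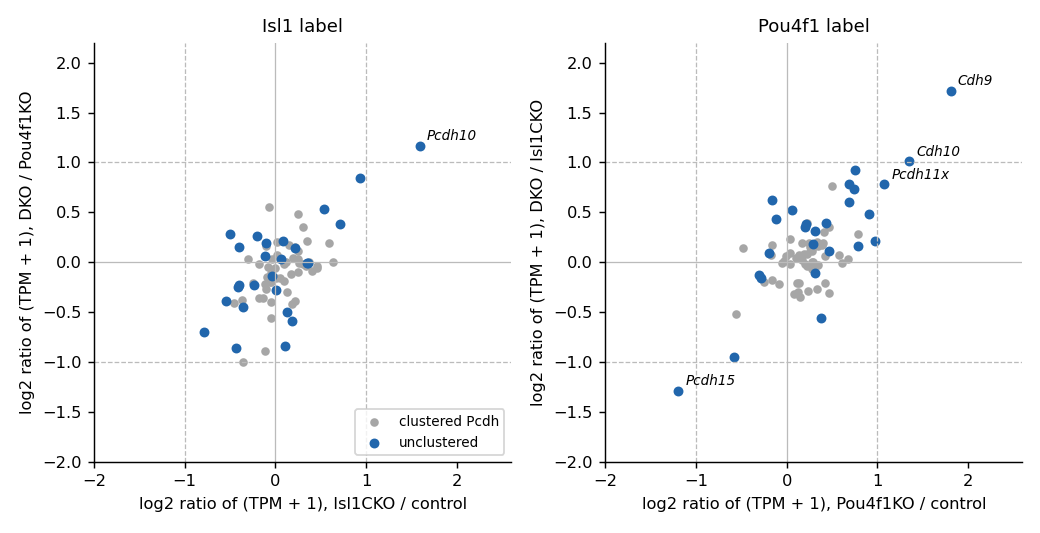
Log2 ratios of (TPM + 1) of the 80 members for the Isl1 label (left, Isl1CKO over control against DKO over Pou4f1KO) and the Pou4f1 label (right, Pou4f1KO over control against DKO over Isl1CKO), with dashed lines at 2-fold. Pcdh10 at 1.59 and 1.17 stands apart on the left, Cdh9 at 1.81 and 1.72 and Pcdh15 at −1.20 and −1.29 on the right, and the clustered genes stay within 2-fold.

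Markers of cells next to the ganglion differed between these libraries. Neural tube factors, of which 24 of 26 were compared, were higher in 17 cases in Pou4f1KO, in 4 in the library labelled DKO and in 2 in the library labelled Isl1CKO, with 1 lower in each of the first 2. Their summed level was 135 TPM in the library labelled Isl1CKO, 227 TPM in Pou4f1KO and 161 TPM in the library labelled DKO, against 131 TPM in control, and Pax7 and En1 stood at 0 TPM in the libraries labelled Isl1CKO and DKO, as did Dbx1 in the library labelled Isl1CKO. Hox genes summed to 35.0 TPM in the library labelled Isl1CKO, 99.6 TPM in Pou4f1KO and 42.2 TPM in the library labelled DKO, against 34.8 TPM in control, with 8 of 9 higher in Pou4f1KO and 0 of 9 in the library labelled DKO. In DKO over Pou4f1KO 16 of the 24 neural tube factors were lower and 0 were higher. Single factors of the list had other orders: Nkx6-1 stood at 0.203 TPM in the library labelled Isl1CKO, 1.56 TPM in Pou4f1KO and 2.495 TPM in the library labelled DKO, against 0.0892 TPM in control, the order of Cdh9, and Lhx2 stood at 12.2, 11.5 and 17.3 TPM in those mutant libraries, against 4.03 TPM in control. Pcdh11x, Cdh6 and Cdh12 were highest in Pou4f1KO, as the summed markers were. This was not particular to them: other unclustered members, among them Cdh2, Pcdh9 and Pcdh17, and the Pcdha, Pcdhb and Pcdhg sums were also highest there. The part of these markers in the values of any member was not tested. Against control, 0 of 10 glial, 0 of 8 erythroid and 0 of 9 macrophage markers were past 2-fold in any mutant library, and of 7 muscle genes Actc1 was higher in the libraries labelled Isl1CKO and DKO. Scaled to equal pan-neuronal markers, the median of all genes was −0.16 in Isl1CKO over control and −0.22 in Pou4f1KO over control. Without that scaling these medians were −0.02 and 0.02. Under it Cdh9, Cdh10 and Pcdh10 stayed past 2-fold wherever they were so above.

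Of 4 members known from other cell types, Cdh11 and Pcdh12 had the order of the summed markers of those cells across libraries, and Cdh19 and Cdh15 did not. Cdh11 stood at 31.4 TPM in the library labelled Isl1CKO, 40.0 TPM in Pou4f1KO and 49.0 TPM in the library labelled DKO, against 45.0 TPM in control. The mesenchyme markers summed to 291, 357 and 505 TPM in those mutant libraries and 448 TPM in control, the same order. Pcdh12, a protocadherin of endothelium, stood at 1.68 TPM in the library labelled Isl1CKO, 2.26 TPM in Pou4f1KO and 2.62 TPM in the library labelled DKO, against 2.53 TPM in control, and the endothelial markers summed to 96.6, 125 and 161 TPM in those mutant libraries and 136 TPM in control, again in the same order. Of the 12 endothelial markers 0 stood at 0 TPM in any library, and likewise of the mesenchyme markers. Their part in these 2 genes was not tested. Cdh19 stood at 18.4 TPM in the library labelled Isl1CKO, 24.0 TPM in Pou4f1KO and 24.5 TPM in the library labelled DKO, against 17.5 TPM in control. The glial markers, a list that holds Cdh19, summed to 771, 897 and 766 TPM in those mutant libraries and 831 TPM in control. Cdh15 stood at 1.48, 1.33 and 1.65 TPM in those mutant libraries and 1.66 TPM in control, while the muscle list, which holds it, summed to 204, 86.7 and 221 TPM in them and 66.3 TPM in control. Most of the muscle sum was Actc1, at 191, 73.1 and 206 TPM in those mutant libraries and 53.9 TPM in control. The sum therefore says little about the other muscle markers.

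**Figure D4:**
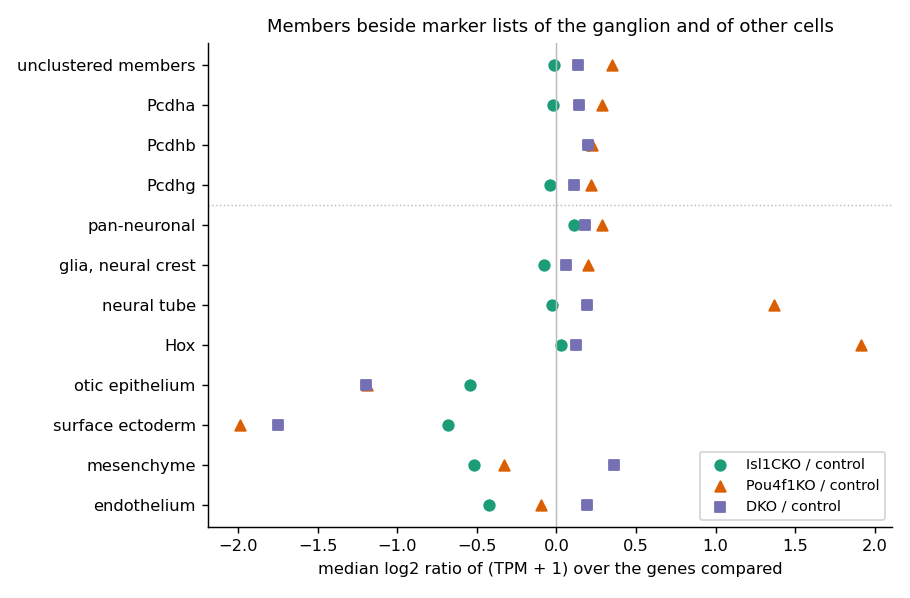
Median log2 ratio of (TPM + 1) over control for the members (top 4 rows) and for marker lists (below), 1 symbol per mutant library. Member medians lie between −0.04 and 0.35, whereas neural tube and Hox lists reach 1.37 and 1.92 in Pou4f1KO and otic and ectodermal lists lie between −1.19 and −1.99 in Pou4f1KO and DKO.

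Of the 58 clustered protocadherins of chromosome 18, 54 reached 1 TPM, and 0 of them passed 2-fold in any of the 5 comparisons, in which between 1.2% and 3.35% of all genes did. With a pseudocount of 0.1 TPM, 6 of them passed in some comparison (Pcdha2, Pcdha5, Pcdha9, Pcdhac1, Pcdhac2 and Pcdhb14). That pseudocount also raised the calls over all genes, in DKO over control from 152 higher and 352 lower to 343 and 605. The Pcdha rows summed to 35.3 TPM in the library labelled Isl1CKO, 40.1 TPM in Pou4f1KO and 36.7 TPM in the library labelled DKO, against 34.3 TPM in control. The Pcdhb rows summed to 66.0 TPM in the library labelled Isl1CKO, 68.9 TPM in Pou4f1KO and 65.8 TPM in the library labelled DKO, against 54.8 TPM in control. The Pcdhg rows summed to 263 TPM in the library labelled Isl1CKO, 321 TPM in Pou4f1KO and 296 TPM in the library labelled DKO, against 270 TPM in control. The log2 ratios of these sums to control lay between −0.04 and 0.32. In Pou4f1KO they were 0.22 for Pcdha, 0.32 for Pcdhb and 0.25 for Pcdhg, and under pan-neuronal scaling −0.03, 0.06 and −0.02, so that the direction of Pcdha and Pcdhg turned. That of Pcdha also turned in the library labelled Isl1CKO, at −0.10 under that scaling and 0.04 without it.

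Single rows of these clusters are less certain than their sums. All 14 Pcdha rows overlap each other, as do all 22 Pcdhg rows, because each isoform adds its own first exon to the shared last ones: the ends of the Pcdha rows lie within 1240 bases of each other and those of the Pcdhg rows within 1383. The sources used here do not say how reads of the shared exons were divided. The 22 Pcdhb rows do not overlap each other and have 1 or 2 exons, but rows of unnamed genes on the same strand (Gm37013, Gm38666 and Gm38667, at 0 to 1.93 TPM) run across them.

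Pcdhgc3 led the Pcdhg cluster in all 4 libraries. Pcdhgc3, a C-type isoform made in most neurons rather than chosen at random, stood at 68.2 TPM in the library labelled Isl1CKO, 90.9 TPM in Pou4f1KO and 89.6 TPM in the library labelled DKO, against 77.7 TPM in control. This was 25.9%, 28.3% and 30.2% of the Pcdhg sum in those mutant libraries and 28.7% in control. The other C-type isoforms were low: Pcdhgc4 and Pcdhgc5 lay between 2.09 and 3.51 TPM, and Pcdhac1 did not exceed 1.43 TPM. Pcdhac2 stood at 1.91 TPM in the library labelled Isl1CKO, 4.94 TPM in Pou4f1KO and 1.97 TPM in the library labelled DKO, against 2.71 TPM in control, and its ratio for DKO over Pou4f1KO fell just short of 2-fold. In the Pcdhb cluster the highest rows were Pcdhb17, Pcdhb22 and Pcdhb20, all near its far end, with 43.3%, 41.6% and 43.0% of the cluster sum in the libraries labelled Isl1CKO, Pou4f1KO and DKO and 40.7% in control. Pcdhb17 stood at 11.0 TPM in the library labelled Isl1CKO, 11.1 TPM in Pou4f1KO and 10.8 TPM in the library labelled DKO, against 8.52 TPM in control. Across isoforms, the rank correlation of TPM between 2 libraries (Spearman's rho, 6 pairs of libraries) was 0.97 to 0.98 for the 22 Pcdhg rows, 0.88 to 0.97 for the 22 Pcdhb rows and 0.69 to 0.92 for the 14 Pcdha rows. These values are descriptions, since isoforms of a cluster share exons or close sequence, and many Pcdha and Pcdhb rows alike are low. Why the values were lower for the Pcdha rows was not tested.

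**Figure D5:**
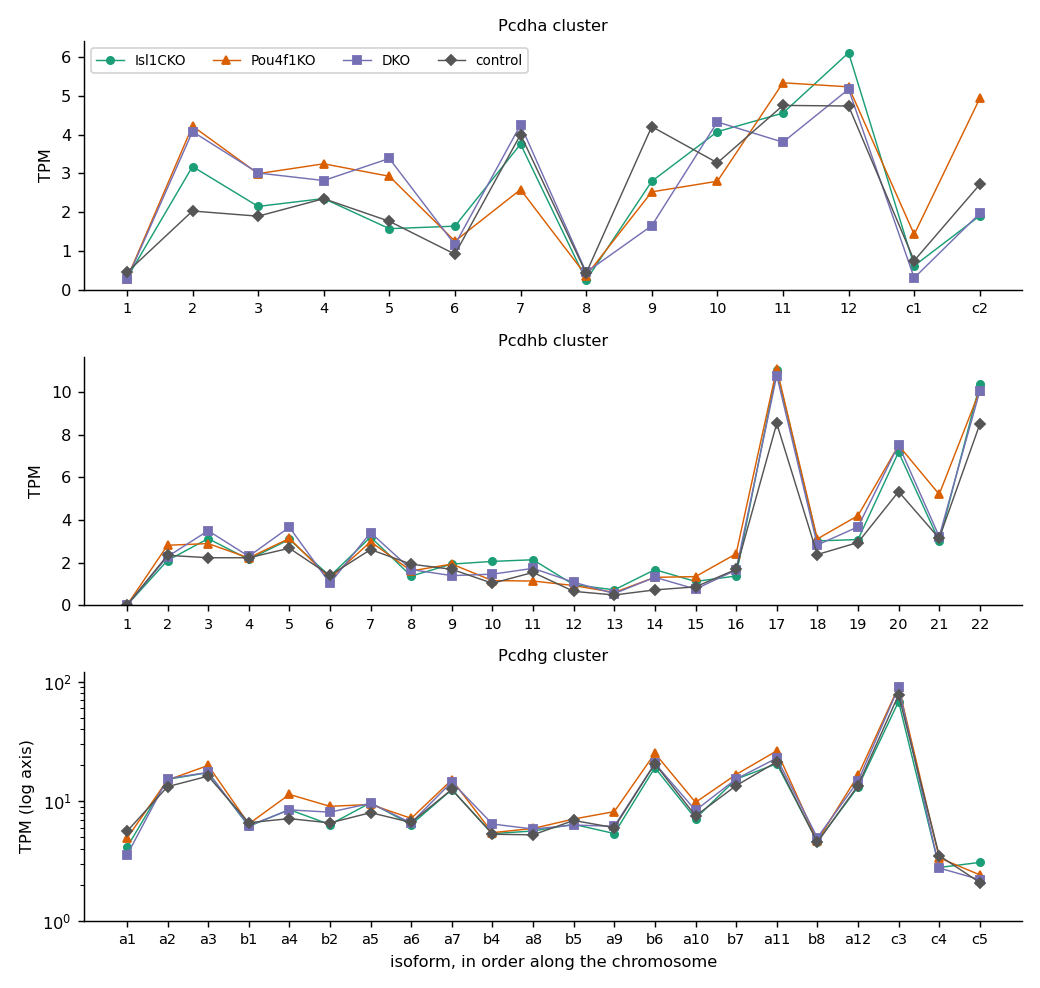
TPM of each clustered isoform in order along chromosome 18, 1 line per library (log axis for Pcdhg). The 4 lines have similar shapes in the Pcdhb and Pcdhg clusters, with peaks at Pcdhb17, Pcdhb22 and Pcdhgc3, and cross more often in the Pcdha cluster.

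Among genes of catenins, protocadherin signalling partners and regulators of the clustered promoters, 0 were past 2-fold in any of the 5 comparisons, in which between 1.2% and 3.35% of all genes were. Of the 10 of 11 catenins and linked proteins that could be compared, the highest and lowest ratios to control were 0.45 for Ctnna2, the neuronal alpha-catenin, in Pou4f1KO and −0.36 for Pkp4 in the library labelled Isl1CKO. Ctnnb1, which encodes beta-catenin, stood at 789 TPM in the library labelled Isl1CKO, 764 TPM in Pou4f1KO and 810 TPM in the library labelled DKO, against 813 TPM in control. Of the 10 of 11 signalling partners of protocadherins that could be compared, the lowest and highest ratios to control were −0.18 for Cyfip1 in the library labelled Isl1CKO and 0.36 for Cyfip2 in Pou4f1KO. Nckap1, the WAVE complex subunit that PCDH10 binds, stood at 126 TPM in the library labelled Isl1CKO, 134 TPM in Pou4f1KO and 125 TPM in the library labelled DKO, against 128 TPM in control. Of the 9 regulators of the clustered promoters, Ctcf, whose protein loops these promoters to their enhancers, lay between 110 and 116 TPM, and ratios ran between −0.55 for the DNA methyltransferase gene Dnmt3b and 0.09 for Nipbl, both in Pou4f1KO.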

How the data were processed

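RNA was measured in mouse CVG at embryonic day 11.5, 1 library per genotype, from strand-specific libraries per the labels' protocols. Trimmomatic, FastQC, HISAT2, SAMtools and StringTie and build mm10 are named in the submitters' processing notes, without settings, and the sources used here do not name the annotation. Per the file headers, the authors deposited TPM, which sums to the same total in each library. The deposited FPKM is a constant multiple of TPM in a library, and the deposited coverage is the mean depth over a gene's bases, not scaled between libraries. FPKM and coverage served as alternatives. Coverage divided by FPKM gave the depth of a library.

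Rows that share a symbol were summed. Genes at 1 TPM or more in at least 1 library were compared by log2 ratios of (TPM + 1), which are too small for low genes, and counted if past 2-fold (log2 ratio of 1). A count test does not suit TPM, and 1 library per genotype allows no p-value. Of the members, 89 matched a gene of GENCODE M21 on the same strand. The calculation was tested on simulated data (Python 3.11.15, pandas 2.3.3).

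The members, lists and tests were chosen with earlier results of these data known, so no list is independent evidence. Members are named if past 2-fold with 5 TPM in the higher library, or among the 8 with the highest mean; Cdh7, Pcdh15 and other members below that were named after their values were seen, as were Ctnnb1, Nckap1, Ctcf, Celsr3, Myo7a, Clrn1, Nkx6-1 and Lhx2. Lists were 6 of partner genes, 1 of which is not reported here, and 11 of cell markers.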

Additional observations from a re-analysis of the deposited data

How the results depend on the processing

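Of 6 alternatives chosen at the start and 1 chosen after seeing the data (coverage in place of TPM), all but leaving out overlapping rows were run on single genes, and Cdh9, Cdh10, Pcdh10 and Pcdh11x kept their direction in each comparison where they were past 2-fold. Pcdh11x, at 0.01 in Isl1CKO over control, was at −0.11 under pan-neuronal scaling. Counts are small and moved. With a pseudocount of 0.1 TPM in place of 1, low genes gained weight: members higher than control numbered 4 in Isl1CKO and 6 in Pou4f1KO, members lower numbered 2 in Pou4f1KO and 4 in DKO, DKO over Isl1CKO gave 4 higher and 2 lower, DKO over Pou4f1KO gave 4 lower, and 2 members were lower with the Pou4f1 label in both backgrounds. Under pan-neuronal scaling 2 members, Cdh9 and Pcdh10, were higher in DKO over Pou4f1KO. With FPKM, whose values are smaller, and with coverage alike, 0 members were lower in Pou4f1KO over control and in DKO over Isl1CKO, 1 was higher in DKO over Isl1CKO, and 1 (Cdh9) was higher and 0 lower with the Pou4f1 label in both backgrounds; with coverage 2 members, Cdh9 and Pcdh10, were higher in DKO over control. FPKM is a constant multiple of TPM in a library, so the same pseudocount weighs more on its smaller values and shrinks ratios of low genes. Cdh10, whose coverage was 0.0386 of what its TPM goes with in all 4 libraries, is shrunk in the same way on the coverage scale. For such genes these 2 scales are not independent of TPM. What else entered these moves was not tested. Cdh9 passed 2-fold in Isl1CKO over control with a pseudocount of 0.1 (log2 ratio 1.47). Over all genes, that pseudocount called 220 higher and 287 lower in Isl1CKO over control, in place of 88 and 93. It called 323 and 469 in Pou4f1KO over control, in place of 147 and 260. In DKO over control it called 343 and 605, in place of 152 and 352. For DKO over Isl1CKO it called 343 and 387, and for DKO over Pou4f1KO 247 and 369. In Isl1CKO over control FPKM called 36 and 25, and without overlapping rows 55 were higher and 68 lower. Pan-neuronal scaling shifted the balance of all genes past 2-fold further towards lower in Isl1CKO over control (65 higher and 134 lower) and Pou4f1KO over control (101 and 369, in place of 147 and 260), and turned it in DKO over Isl1CKO (162 and 147, in place of 131 and 185) and DKO over Pou4f1KO (137 and 112, in place of 97 and 168). Median-of-ratios scaling moved no count of members by over 1.5 times. Running without the filter could not move a count. A gene below 1 TPM in every library cannot reach 2-fold with a pseudocount of 1 TPM. Leaving out overlapping rows could not move a count either, since it removes only clustered members, of which 0 had passed 2-fold. No paired analysis was possible because each genotype has 1 library. Depth limits the low genes: Cdh7 was covered 0.454 times in control and Cdh10 0.882 times.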

Other observations

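The rest of the cadherin superfamily, taken as a list of 26 genes of which 16 could be compared, showed 3 lower members in Pou4f1KO and 3 in the library labelled DKO, each time Cdh1, Cdh3 and Dsg2, and 0 higher. All 3 are adhesion genes of epithelia. Over all genes, 1.73% were lower in Pou4f1KO over control and 2.34% in DKO over control, and 0.977% and 1.01% were higher. Cdh1 (E-cadherin) stood at 6.08 TPM in the library labelled Isl1CKO, 2.08 TPM in Pou4f1KO and 2.72 TPM in the library labelled DKO, against 11.2 TPM in control, and Cdh3 (P-cadherin) at 23.8, 14.3 and 10.5 TPM in those mutant libraries, against 37.7 TPM in control. Surface ectoderm markers, a list that holds Cdh1 and Cdh3, had 8 of 9 compared genes lower in Pou4f1KO and in the library labelled DKO, and the part of that tissue was not tested. The planar polarity gene Celsr3, needed for axon tracts, stood at 67.0 TPM in the library labelled Isl1CKO, 70.4 TPM in Pou4f1KO and 61.9 TPM in the library labelled DKO, against 53.9 TPM in control. Fat4, a giant cadherin of tissue growth control, had log2 ratios to control of 0.43, 0.30 and 0.73 in the libraries labelled Isl1CKO, Pou4f1KO and DKO. The highest ratio in Pou4f1KO was 0.48, for Celsr2.

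Of the 6 of 7 genes of the hair cell tip link complex that could be compared, Ush1c was lower in Pou4f1KO and in the library labelled DKO, where 1.73% and 2.34% of all genes were lower, and 0 were higher. Ush1c, which encodes the scaffold harmonin that binds CDH23, stood at 8.32 TPM in the library labelled Isl1CKO, 4.42 TPM in Pou4f1KO and 1.66 TPM in the library labelled DKO, against 13.4 TPM in control, the same order as Pcdh15. Myo7a, the myosin of the same complex, lay between 15.5 and 17.3 TPM, Clrn1 between 20.2 and 25.0 TPM, Whrn between 4.804 and 6.17 TPM and Tmc1 between 0.480 and 1.17 TPM. Lhfpl5 stood at 2.34 TPM in the library labelled Isl1CKO, 3.51 TPM in Pou4f1KO and 1.22 TPM in the library labelled DKO, against 1.55 TPM in control, with log2 ratios of 0.83 for Pou4f1KO over control and −1.02 for DKO over Pou4f1KO.

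Coverage and TPM of a row did not always go together. Between 18.5% and 18.8% of genes at 1 TPM or more in a library had under 0.9 of the coverage their TPM corresponds to, and between 1.17% and 1.20% had under 0.1. Of the members at 1 TPM, 4 or 5 in a library had under 0.9, and these were Cdh7, Cdh10, Pcdh7, Pcdh10 and Pcdh15, so 4 of the 6 genes that passed 2-fold stand among them, while Cdh9 and Pcdh11x do not. For Pcdh10 the share was 0.523 in the library labelled Isl1CKO, 0.534 in Pou4f1KO and 0.488 in the library labelled DKO, against 0.548 in control.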
